A study of Mus musculus with 7 samples.

Results

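The genes described here carry small nucleolar RNAs (snoRNAs) in their introns: Rabggtb, Rps13, Rps20, Ncl, Gnl3, Gas5 and Snhg1. Their probe sets were taken by gene symbol, and every probe set listed with exactly 1 of these symbols was used. This gave 7 probe sets of 6 genes, out of 23521 probe sets of 22180 genes with a single symbol and 41345 probe sets in the whole table. Gas5 had no such probe set, because the only one listed with it also names another gene, so no value of Gas5 is given. A further probe set of Rabggtb and 3 of Rps13 were left out for the same reason. All 7 passed the filter for the fit, a log2 value of 5 or more on any array, a filter that also passes a gene that is bright in only 1 condition.

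The arrays (Affymetrix Mouse Gene 2.0 ST) measured RNA of selected spleen monocytes from 2 mice that carry wild-type EPCR (endothelial protein C receptor). Mouse 1 and mouse 2 each gave an unstimulated sample and a sample stimulated for 3 h with HL7G at 400 ng/ml, a monoclonal antiphospholipid antibody (n = 2 per group). Mouse 1 alone (n = 1 each) gave samples stimulated for 3 h through TLR7 with R848 at 2 µg/ml, through TLR9 with the oligonucleotide CpG B at 2.5 µM, and with poly I:C at 1 µg/ml, which mimics viral double-stranded RNA. A control IgG that the protocol also names is not analysed here. The sources used here do not state the selection of the monocytes or the strain and age of the mice, nor whether the samples of a mouse were separate cultures, so a p-value measures only the spread between these samples. The study asks how monocytes respond to antiphospholipid antibodies beside agonists of endosomal Toll-like receptors.

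A snoRNA of the box C/D class guides 2′-O-methylation of ribosomal RNA, and one of the box H/ACA class guides conversion of uridine to pseudouridine. In mammals most are not transcribed from promoters of their own: they are cut from an intron of a host transcript after splicing, and the host exons have a separate fate. Some hosts encode proteins, often of the ribosome or nucleolus, while the exons of others, such as Gas5 and Snhg1, form a non-coding RNA that is quickly degraded. Many hosts are transcribed from a start site with a stretch of pyrimidines (C or T), which couples the translation of their mRNA to growth signals through mTOR. An expression array can therefore read a host gene in its exons or through an intronic snoRNA, which is stable and abundant.

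The members differed in what lies inside them. In the RefSeq table of assembly GRCm38.p6, 3 snoRNA genes lie within Rabggtb, 1 within Rps13, 1 within Rps20, 2 within Ncl, 3 within Gnl3, 8 within Gas5 and 8 within Snhg1. Separate single-symbol probe sets existed for 6 of these snoRNAs: Snora75 and Snord82 in Ncl, Snord19 and Snord69 in Gnl3, Snord47 in Gas5 and Snord22 in Snhg1. Where the probes of each host probe set lie was not known, so whether a value came from exons or from an intron is not settled for any member.

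Annotated start sites of the 5 measured host genes with an entry are shown because a pyrimidine stretch there is the textbook feature of such genes. For Rabggtb the outermost start is used. The windows below run from 40 bases before the annotated start to 20 bases from it on, 5′ to 3′ on the gene's strand, from RefSeq promoters of build GRCm38.p6. Capitals mark the longest unbroken run of C or T that touches the 5 bases on either side of the start.
Snhg1 (chr19:8723447-8723506, + strand): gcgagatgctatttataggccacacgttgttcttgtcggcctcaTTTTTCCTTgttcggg
Rabggtb (chr3:153912947-153913006, - strand): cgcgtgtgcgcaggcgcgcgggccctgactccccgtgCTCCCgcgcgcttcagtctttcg
Rps13 (chr7:116334171-116334230, - strand): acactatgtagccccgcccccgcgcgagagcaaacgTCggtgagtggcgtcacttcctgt
Gnl3 (chr14:31019112-31019171, - strand): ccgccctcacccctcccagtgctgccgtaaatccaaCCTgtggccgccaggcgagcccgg
Ncl (chr1:86359436-86359495, - strand): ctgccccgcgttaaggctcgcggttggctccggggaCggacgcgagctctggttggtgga

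At these annotated starts the run was 9 bases in Snhg1, 5 in Rabggtb, 3 in Gnl3, 2 in Rps13 and 1 in Ncl. It was 4 at an inner start of Rabggtb, and 3 and 6 at the outermost and an inner start of Gas5, which are not printed. Over all 32851 promoter windows of the table the median run was 3 bases, and 9.38% of windows had a run of at least 8. The full windows, 250 bases before to 50 after the start, were searched on both strands for 3 motifs. The TATA-type motif TATAAA was found in Snhg1 alone of these 5 windows, on the opposite strand with its first base 29 before the start, and 13.62% of all windows hold it. The E-box CACGTG, held by 7.15% of all windows, was in none of the 5. The ETS-type motif CCGGAAG, held by 8.86%, was in none either. Annotated starts can lie some bases from the start used in a given cell, and an absent match says only that these letters are not in the window.

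Levels are log2 values after RMA, and the array medians lay between 4.40 and 4.54. Rabggtb, Rps13, Rps20 and Ncl were chosen because they stood among the largest rises with HL7G, and Gnl3 because it stood out with CpG B. Their differences from the unstimulated samples are therefore descriptions, with no test. The same holds for the R848 and poly I:C differences, since all 4 stimuli share the unstimulated arrays.

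Rabggtb, which encodes the catalytic beta subunit of the enzyme that attaches geranylgeranyl lipids to Rab proteins, read 2.42 (mouse 1) and 6.40 (mouse 2) without a stimulus. It read 8.81 and 9.21 with HL7G in mouse 1 and mouse 2, 8.38 with R848, 8.28 with CpG B and 8.14 with poly I:C. All stimulated arrays lay above both unstimulated arrays, and the unstimulated arrays stood far apart, by 3.98. The HL7G difference was 4.60 ± 1.09 (SE from the limma fit, n = 2 against 2), with 6.39 within mouse 1 and 2.81 within mouse 2. The unstimulated reading of mouse 1 lay at the 5th percentile of its array (2.43), so no fold is given, and without that array the difference was 2.61.

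Rps13 encodes a protein of the small ribosomal subunit. It read 2.40 (mouse 1) and 3.22 (mouse 2) without a stimulus, and 7.46 and 7.36 with HL7G. R848 gave 6.46, CpG B 6.46 and poly I:C 6.21. Both unstimulated arrays were low and the HL7G arrays lay within 0.09 of each other, the closest HL7G pair among the members. The HL7G difference was 4.60 ± 0.30, with 5.05 in mouse 1 and 4.14 in mouse 2. The unstimulated reading of mouse 1 lay near the 5th percentile of its array (2.43), and that of mouse 2 lay above the 5th percentile (2.41). Both lay under the filter level of 5, so no fold is given.

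Rps20, another protein of the small ribosomal subunit, had a pair of probe sets that read differently. Probe set 17422988 read 3.11 (mouse 1) and 4.91 (mouse 2) without a stimulus, 7.26 and 8.02 with HL7G, 7.20 with R848, 6.72 with CpG B and 7.09 with poly I:C. Probe set 17422980 read 4.70 and 4.45 unstimulated, 5.05 and 4.79 with HL7G, 5.33 with R848, 4.71 with CpG B and 5.67 with poly I:C. The former rose clear of the unstimulated arrays by at least 1.81, whereas the latter stayed between 4.45 and 5.67 on all 7 arrays and its lowest stimulated array lay only 0.0094 above its highest unstimulated array.

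With HL7G the Rps20 differences were 3.63 ± 0.56 for probe set 17422988 and 0.35 ± 0.23 for probe set 17422980. The difference between these probe sets on the same array went from -1.59 and 0.46 in the unstimulated samples to between 1.42 and 3.23 on the stimulated arrays. A rise of Rps20 therefore rests on 1 of its 2 probe sets, and averaging both gave 1.99 for HL7G.

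Ncl encodes nucleolin, an abundant nucleolar protein that binds ribosomal RNA precursors. It read 4.46 (mouse 1) and 5.62 (mouse 2) without a stimulus, 9.29 and 7.51 with HL7G, 8.71 with R848, 8.41 with CpG B and 7.90 with poly I:C. The highest array was HL7G in mouse 1 and the lowest stimulated array was HL7G in mouse 2, 1.78 lower, so the other stimuli fell between the HL7G replicates. The HL7G difference was 3.36 ± 0.60, with 4.83 in mouse 1 and 1.90 in mouse 2.

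Gnl3 encodes nucleostemin, a nucleolar GTP-binding protein of proliferating cells. It read 4.88 (mouse 1) and 4.73 (mouse 2) without a stimulus, 8.10 and 6.23 with HL7G, 7.38 with R848, 8.25 with CpG B and 6.72 with poly I:C. Its unstimulated arrays lay within 0.14 of each other, the closest pair among the members, while its HL7G arrays differed by 1.87. The CpG B difference was 3.45 ± 0.67 (1 array against 2), and the HL7G difference was 2.36 ± 0.54, with 3.23 in mouse 1 and 1.496 in mouse 2.

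Snhg1, a host whose spliced exons form a non-coding RNA, read 4.05 (mouse 1) and 4.71 (mouse 2) without a stimulus, 6.51 and 5.63 with HL7G, 6.16 with R848, 6.31 with CpG B and 5.51 with poly I:C. The order of the stimulated arrays resembled that of Ncl, with HL7G in mouse 1 on top and HL7G in mouse 2 and poly I:C at the bottom. The HL7G difference was 1.69 ± 0.36, the smallest apart from the dim Rps20 probe set.

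**Figure D1:**
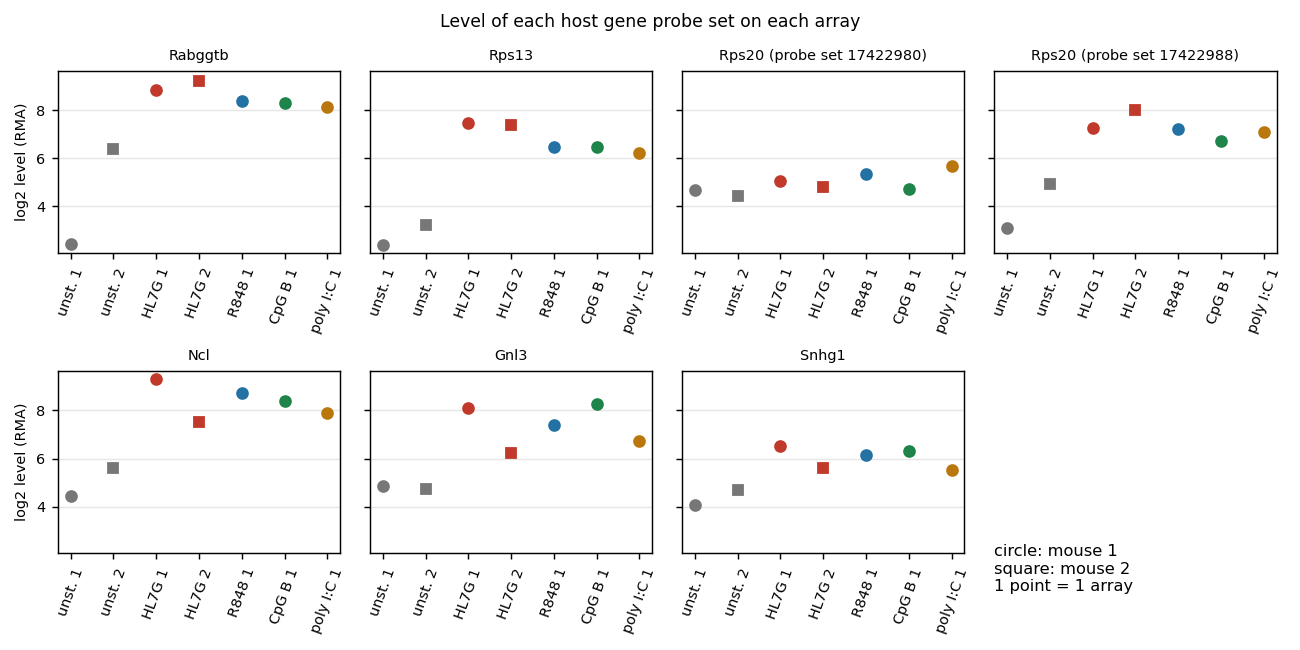
Log2 level (RMA, y axis) of the 7 host gene probe sets on the 7 arrays (x axis), circles for mouse 1 and squares for mouse 2, with 1 point per array. In 6 panels the grey unstimulated points lie well below the stimulated ones, and in the panel of Rps20 probe set 17422980 all points lie between 4.45 and 5.67.

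On all 7 probe sets every stimulated array lay above both unstimulated arrays. Over all 11668 probe sets tested 27.1% had that order, and 15.9% had the reverse. With HL7G 18.7% were called (limma, Benjamini-Hochberg adjusted p under 0.05), 16.3% higher and 2.38% lower. Nothing is read from the members' count, since they were chosen on these arrays.

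The other stimuli gave differences of similar size, with 1 array against 2. For R848 they were 3.97 ± 1.34 in Rabggtb, 3.64 ± 0.37 in Rps13, 3.19 ± 0.69 in Rps20 (probe set 17422988), 3.67 ± 0.74 in Ncl, 2.58 ± 0.67 in Gnl3 and 1.77 ± 0.44 in Snhg1. For CpG B they were 3.87 ± 1.34, 3.64 ± 0.37, 2.71 ± 0.69, 3.37 ± 0.74, 3.45 ± 0.67 and 1.93 ± 0.44 in the same order. For poly I:C they were 3.72 ± 1.34, 3.39 ± 0.37, 3.08 ± 0.69, 2.86 ± 0.74, 1.91 ± 0.67 and 1.12 ± 0.44. The dim Rps20 probe set had 0.75 ± 0.28 with R848, 0.13 ± 0.28 with CpG B and 1.09 ± 0.28 with poly I:C.

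**Figure D2:**
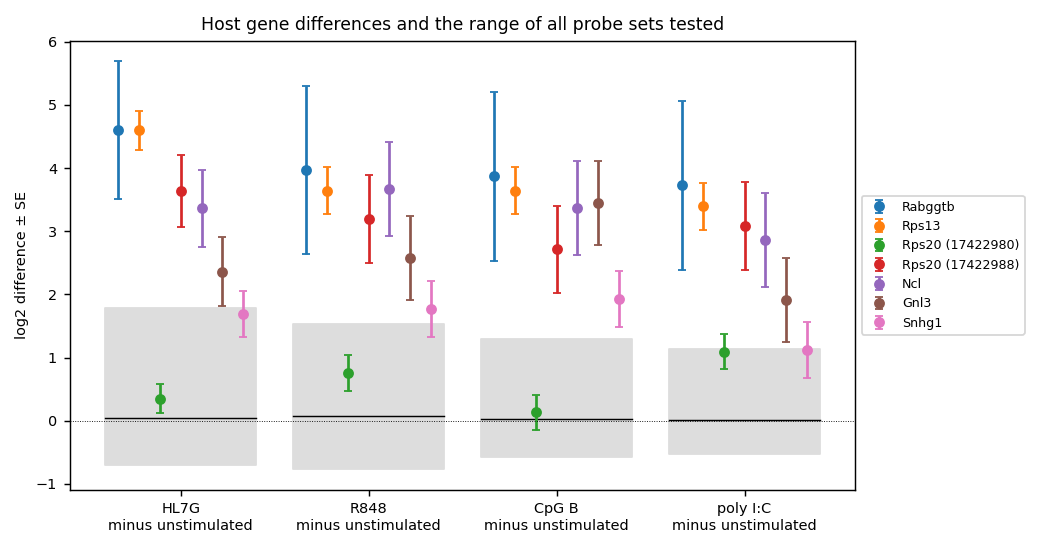
Log2 difference from the unstimulated samples (y axis, points with SE bars from the limma fit) for each host gene probe set with each of the 4 stimuli (x axis). Grey boxes span the 5th to 95th percentile of all 11668 probe sets tested and the black line is their median. With HL7G the box runs from -0.71 to 1.78, and 5 of the 7 host probe sets lie above it.

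The contrast of R848 with poly I:C was tested, with 1 array against 1. Its differences use none of the arrays on which the members were chosen, but its errors come from the spread of the unstimulated and HL7G pairs, which that choice did use, so the test is not fully independent of it. The differences, R848 minus poly I:C, were 0.24 ± 1.54 for Rabggtb (95% interval -3.40 to 3.89), 0.25 ± 0.43 for Rps13 (-0.76 to 1.27) and 0.11 ± 0.80 for Rps20 probe set 17422988 (-1.78 to 2.00). Ncl had 0.81 ± 0.86 (-1.21 to 2.84), Gnl3 0.67 ± 0.77 (-1.15 to 2.49) and Snhg1 0.65 ± 0.51 (-0.56 to 1.86), and Rps20 probe set 17422980 had -0.34 ± 0.32 (-1.11 to 0.43). None passed (limma adjusted p = 1.0 for each). In limma 0% of all probe sets were called, with 370 at an unadjusted p under 0.05. The intervals are wide, so a difference of several-fold between these agonists is within them for most members.

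Order within mouse 1 can be given for the stimuli without the unstimulated arrays, as values. HL7G was the highest of the 4 stimuli in mouse 1 for Rabggtb, Rps13, Ncl, Snhg1 and Rps20 probe set 17422988. R848 lay below it by 0.43 in Rabggtb, 1.00 in Rps13, 0.58 in Ncl, 0.35 in Snhg1 and 0.060 in Rps20. In Gnl3 CpG B lay 0.15 above HL7G, and in Rps20 probe set 17422980 R848 lay 0.28 and poly I:C 0.62 above it. Poly I:C gave the lowest of the 4 in Rabggtb, Rps13, Ncl, Gnl3 and Snhg1, by 0.68, 1.25, 1.39, 1.39 and 1.00 below HL7G. All steps from HL7G in Rabggtb and in Rps20 probe set 17422988 were smaller than the gap between the unstimulated arrays of that probe set, and all steps in Gnl3 were smaller than the gap between its HL7G arrays. In Rps20 probe set 17422980 the steps (0.28, 0.34 and 0.62) exceeded both gaps (0.24 and 0.26). In Rps13 the steps below HL7G exceeded both gaps (0.82 and 0.09).

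The direction and size of the gap between the HL7G arrays of the mice varied among the members. The HL7G array of mouse 2 lay above that of mouse 1 by 0.40 in Rabggtb and 0.76 in Rps20 probe set 17422988. It lay below it by 1.78 in Ncl, 1.87 in Gnl3, 0.88 in Snhg1, 0.09 in Rps13 and 0.26 in Rps20 probe set 17422980. Over all probe sets tested the median of that difference was -0.008. For the 46 tested probe sets of RNA polymerase I and ribosomal RNA processing genes, the pathway in which nucleolin acts, it was -0.87. The HL7G difference of those genes had a median of 1.41 in mouse 1 and 0.45 in mouse 2, against 0.01 and 0.11 over all probe sets. With 1 array per mouse and condition this difference between mice has no replicate and was not tested.

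The snoRNAs inside the member genes were read by probe sets of their own. Snord82, a box C/D snoRNA of Ncl, read 8.25 (mouse 1) and 11.1 (mouse 2) without a stimulus, 11.5 and 11.7 with HL7G, and 11.3, 11.5 and 11.4 with R848, CpG B and poly I:C. Snora75, a box H/ACA snoRNA of Ncl, read 10.001 and 12.2 unstimulated and 11.7 to 12.1 on the stimulated arrays. For both, the unstimulated array of mouse 1 stood alone, and that of mouse 2 lay near the stimulated arrays, whereas Ncl itself was low in both unstimulated samples.

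In Gnl3 the box C/D snoRNA Snord69 read 6.31 (mouse 1) and 7.89 (mouse 2) without a stimulus, 9.72 and 8.77 with HL7G, and 9.86 to 10.1 with the other stimuli. Snord19, the other measured snoRNA of Gnl3, read 2.85 and 4.57 unstimulated and 5.20 to 6.27 on the stimulated arrays. On both, every stimulated array lay above both unstimulated arrays, by at least 0.88 for Snord69 and 0.62 for Snord19. That order was common, since 27.1% of all probe sets tested had it.

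Snord22, inside Snhg1, read 11.2 and 12.6 unstimulated and 12.0 to 12.6 stimulated, so its groups overlapped. Snord47, inside Gas5, read 6.58 and 10.5 unstimulated and 10.9 to 11.3 stimulated. It had the largest gap between unstimulated samples of the 6 snoRNAs, 3.97, close to the 3.98 of Rabggtb.

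Within mouse 2 the HL7G difference was small for each of these snoRNAs and larger for the host probe sets. Snord82 had 3.25 in mouse 1 and 0.63 in mouse 2, and Snora75 1.70 and -0.044, against 4.83 and 1.90 for Ncl. Snord69 had 3.41 and 0.88, and Snord19 3.33 and 0.62, against 3.23 and 1.496 for Gnl3. Snord22 had 1.12 and -0.51, against 2.46 and 0.91 for Snhg1. In mouse 2 the host exceeded the snoRNA by 0.62 to 1.94 in all 5 pairs, and in mouse 1 it did so for both snoRNAs of Ncl and for Snord22 but not for Snord19 and Snord69 of Gnl3 (-0.11 and -0.18). The probe set of each of these 3 hosts thus rose by more than that of its snoRNA in mouse 2, with 1 array against 1. Unstimulated in mouse 2, Snord82, Snora75 and Snord22 already read 11.1, 12.2 and 12.6, where the 95th percentile of the array was 6.71. Whether probe sets this bright could read a further rise was not tested.

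**Figure D3:**
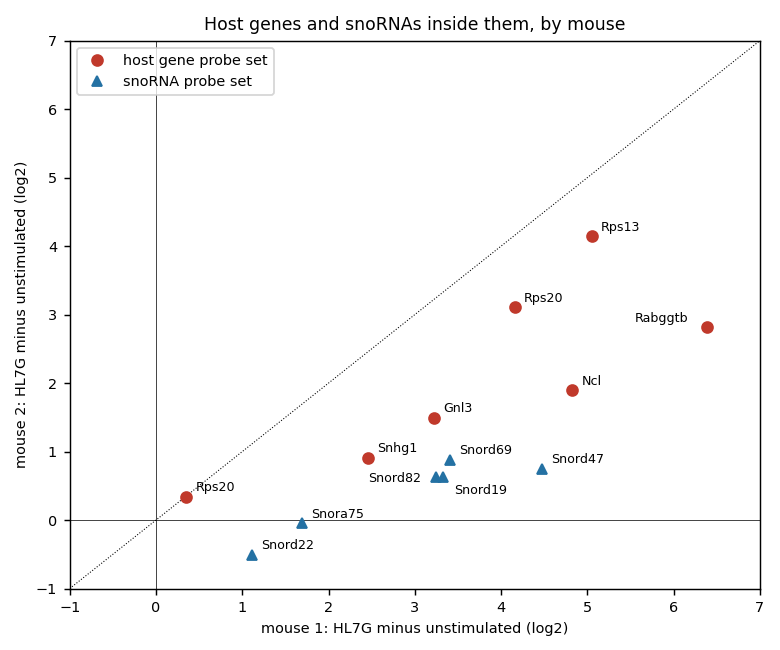
HL7G minus unstimulated on the log2 scale in mouse 1 (x axis) and mouse 2 (y axis), with red circles for the 7 host gene probe sets and blue triangles for the 6 snoRNA probe sets, 1 array per value. The dotted line marks equal differences; the snoRNAs lie at or below 0.88 in mouse 2, and all hosts but the dim Rps20 probe set lie at or above 0.91.

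Other measures moved with the groups. Actin (Actb) read 5.02 (mouse 1) and 6.81 (mouse 2) without a stimulus and 7.77 to 9.34 when stimulated, and the elongation factor Eef1a1 read 6.61 and 9.46 against 10.2 to 10.8. B2m, the MHC class I light chain, read 5.74 and 7.90 against 9.23 to 10.3, while the glycolytic enzyme Gapdh read 9.13 and 8.75 against 7.73 to 8.32. These values are of the probe set of each gene with the largest HL7G difference in either direction. The 4 genes had 7 tested probe sets, of which 4 lay above 0 with HL7G, with a median of 0.77. Of 8 monocyte markers 4 stayed under 5 on all arrays (Itgam, Fcgr1, Ly6c2 and Ccr2), and 1 was called higher with HL7G. B cell markers had 5 of 6 called higher and a mean level of 5.03 and 5.33 unstimulated against 6.45 and 6.54 with HL7G. T cell markers had 4 of 6 called higher, with 4.84 and 5.06 against 6.31 and 6.16. No neutrophil marker (3 tested) or erythroid marker (1 tested) was called. The part of these shifts in the host gene differences was not tested, and fewer cells of a type cannot be told apart from less RNA per cell in such samples.

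By position, 476 other RefSeq genes contain a snoRNA, 84 of them one with a numbered name. Of their 269 tested probe sets 100 were called higher and 1 lower (37.2%, against 16.3% of all probe sets) and 216 lay above 0, with a median difference of 0.77 against 0.05. Restricting them to hosts of a snoRNA with a numbered name, a choice made after these counts were seen, gave 46 higher and 0 lower of 77 probe sets, with a median of 1.54. A list of hosts from textbook knowledge had 51 higher and 0 lower of 95, with a median of 1.44. Some hosts have many probe sets, and with the brightest of each gene alone the counts were 72 of 214, 30 of 50 and 27 of 49 genes, against 16.3% of all genes. The sizes also depended on the filter, which passes probe sets that are bright only when stimulated. With no filter on level 99 of 442 host probe sets were called higher, with a median of 0.13. Over all 23521 probe sets 1927 were, with a median of -0.13. Hosts of a numbered snoRNA then had 46 of 90, with a median of 1.26.

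Nop56, a core protein of box C/D particles and itself a host, read 2.98 (mouse 1) and 3.43 (mouse 2) without a stimulus and 5.96 to 7.23 when stimulated on its probe set with the largest difference. It rose by 3.67 ± 0.31 (limma adjusted p = 0.0108). Taf1d, a subunit of the RNA polymerase I promoter factor, rose by 3.70 ± 0.59 (adjusted p = 0.0127), the largest difference of its 11 tested probe sets (1.03 to 3.70). Zfas1, a non-coding host, rose by 3.10 ± 0.46 (adjusted p = 0.0114), the larger difference of its 2 tested probe sets (the other had 1.63). Eif4a2, a translation initiation helicase, rose by 3.07 ± 0.29 (adjusted p = 0.0108) and Eef1b2, an exchange factor of translation elongation, by 2.93 ± 0.37 (adjusted p = 0.0108).
Gm4759 (3.99 ± 0.41) and BC005537 (3.33 ± 0.32), which contain no numbered snoRNA, rose too (adjusted p = 0.0108 for both). Without a stimulus these probe sets read 2.22 (mouse 1) and 2.955 (mouse 2) for Eif4a2, 3.04 and 4.47 for Zfas1, and 3.84 and 3.99 for Gm4759. Those probe sets and that of Nop56 lay under the filter level of 5 on both unstimulated arrays and passed it only through stimulated arrays. Their differences start from low readings, and Eif4a2 in mouse 1 lay under the 5th percentile of its array (2.43).

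Ribosomal protein genes gave a comparison of hosts and other genes of like function. Of 33 probe sets of those with a snoRNA inside, 17 were called higher (51.5%, median 1.08), and of 55 probe sets of those without, 28 (50.9%, median 1.00). None was called lower. Rpl4, a host, rose by 2.91 ± 0.46 (adjusted p = 0.0126) and Rpsa, a host, by 2.09 ± 0.35 (adjusted p = 0.0135), while Rpl14 and Rpl7, which are not hosts by this table, rose by 2.96 ± 0.33 (adjusted p = 0.0108) and 2.85 ± 0.43 (adjusted p = 0.0117). With the brightest probe set of each gene the shares stayed alike, 9 of 16 hosts and 21 of 38 others, against 16.3% of all genes. They parted in some other settings. With a variance trend 5 of 33 probe sets of hosts and 21 of 55 of the others were called higher, against 2218 of all 11668. With all probe sets of the table in the fit 6 and 22 were, against 1788 of all 19415. At a mean level of at least 6 the counts were 7 of 24 and 22 of 33, against 456 of all 1448. With the variance trend and at that mean level the share of hosts lay below that of all probe sets. Without the HL7G array of mouse 1 the medians were 0.92 for hosts and 1.04 for the others. The difference between hosts and the others was not tested.

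Of 6 probe sets of box C/D core proteins 3 were called higher, all of Nop56 and Nop58 (2.46 ± 0.61, adjusted p = 0.0347), while Snu13 had 0.79 ± 0.34 (adjusted p = 0.148). Of 4 box H/ACA proteins only Nhp2 was called (1.14 ± 0.29, adjusted p = 0.0383), and the pseudouridine synthase Dkc1 had 1.46 ± 0.51 (adjusted p = 0.0898). Of 7 assembly factors Znhit6 was called (1.30 ± 0.29, adjusted p = 0.0250). RNA polymerase I and ribosomal RNA processing genes had 9 of 46 called higher and 0 lower, a share (19.6%) near that of all probe sets (16.3%), with a median of 0.91. With the mouse as a block 14 were called higher (1767 of all 11668 probe sets), and with a variance trend 16 (2218 of all 11668). With all probe sets of the table in the fit 5 were (1788 of all 19415), and after cyclic loess 8 (17.4%, against 12.2%). Without the HL7G array of mouse 1 their median was 0.46, and without that of mouse 2 it was 1.42. The 4 with the largest differences were Npm1, the nucleolar protein nucleophosmin (2.61 ± 0.38, adjusted p = 0.0114), Wdr43 (2.49 ± 0.53, adjusted p = 0.0227), Noc2l (2.30 ± 0.41, adjusted p = 0.0156) and Ddx10, an RNA helicase (2.29 ± 0.36, adjusted p = 0.0121). The probe sets named here of Nop58, Znhit6, Wdr43, Noc2l and Ddx10 lay under the filter level of 5 on both unstimulated arrays. They passed it only through stimulated arrays, so their tests are not independent of the filter.

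Nonsense-mediated decay, which degrades the exons of non-coding hosts, had 3 of 8 called higher, against 16.3% of all probe sets: the kinase Smg1 (2.35 ± 0.32, adjusted p = 0.0111), Upf2 (1.22 ± 0.32, adjusted p = 0.0402) and Smg5 (1.08 ± 0.23, adjusted p = 0.0221). The mTOR pathway had 4 of 13 (30.8%), and 2 of 13 after cyclic loess (15.4%, against 12.2% of all probe sets), including Larp1, which binds pyrimidine-start mRNAs (2.11 ± 0.49, adjusted p = 0.0290), Eif4ebp1 (1.30 ± 0.29, adjusted p = 0.0265) and Rictor (1.13 ± 0.23, adjusted p = 0.0213). Upf2, Smg5 and Rictor lay under the filter level of 5 on both unstimulated arrays, so their tests are not independent of the filter either. The medians of the decay and mTOR lists were 0.774 and 0.506, against 0.05 over all probe sets. Without the unstimulated array of mouse 2 they were 0.705 and 0.624, against 0.03. Without the HL7G array of mouse 1 they were 0.466 and 0.315, against 0.07. Rabggta, the partner subunit of Rabggtb, had 0.46 ± 0.21 (adjusted p = 0.160) and Rabif 0.42 ± 0.24 (adjusted p = 0.242), and Chm and Chml were too dim to be tested.

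**Figure D4:**
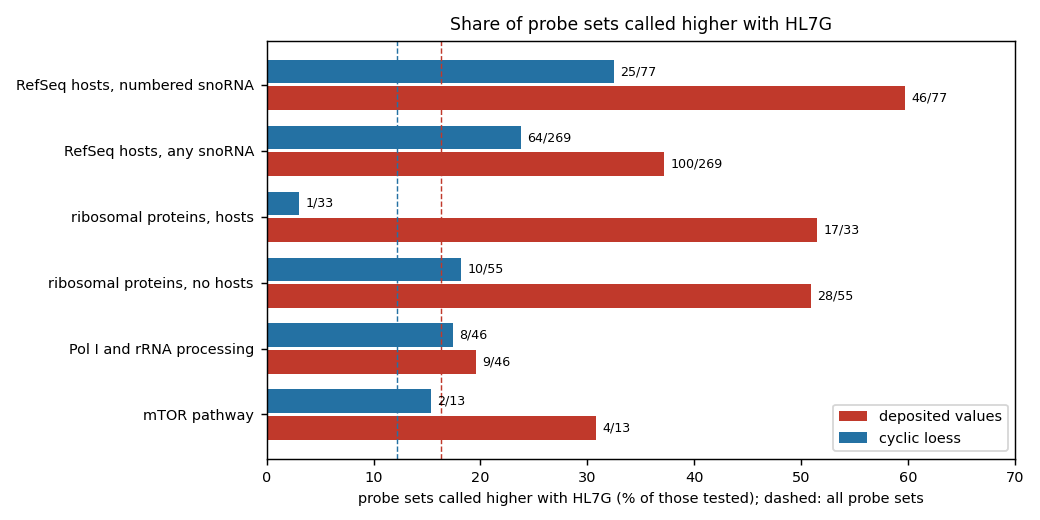
Percent of tested probe sets called higher with HL7G (x axis; limma, adjusted p under 0.05) for 6 gene lists (y axis), red for the deposited values and blue after cyclic loess, with counts beside the bars. Dashed lines mark the share over all probe sets, 16.3% and 12.2%; ribosomal protein hosts go from 51.5% to 3.03%.

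The counts and medians of hosts depended on the scaling, the fit and single arrays, as did the counts over all probe sets. After cyclic loess on the tested probe sets the hosts of a numbered snoRNA had 25 higher and 2 lower of 77 (32.5%, against 12.2% of all probe sets), with a median of 0.61. With all probe sets of the table in the fit 25 of the 77 were called higher, against 1788 of all 19415. Without the HL7G array of mouse 1 the median of the 77 was 1.16, against 0.07 over all probe sets. After cyclic loess ribosomal protein hosts had 1 higher and 1 lower of 33, and those without a snoRNA 10 higher and 1 lower of 55 (18.2%). Leaving out the unstimulated array of mouse 1 gave a median of 1.15 for hosts of a numbered snoRNA, against 0.10 over all probe sets. Ribosomal protein hosts then had 0.83 and those without a snoRNA 0.86. Nearly no probe set of any kind was called in that fit, so its counts cannot compare lists. The R848, CpG B and poly I:C comparisons had 0% of all probe sets called in limma, with 2719, 1480 and 1125 at an unadjusted p under 0.05. The medians of hosts of a numbered snoRNA were 1.40, 1.15 and 1.08 there, against 0.08, 0.03 and 0.02 over all probe sets, and these comparisons share the unstimulated arrays with HL7G.

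Genes with the most similar course over the 7 arrays were sought by the root mean square difference of values centred on each gene's mean. Taf1d, which RefSeq places around 6 snoRNA genes, was nearest to Rps20 (0.21, r = 0.992) and to Rabggtb (0.68, r = 0.978), and Nop56 was nearest to Rps13 (0.47, r = 0.982). Phip, which encodes a bromodomain protein, was nearest to Ncl (0.34, r = 0.978), Pa2g4, a proliferation-associated RNA-binding protein, to Gnl3 (0.26, r = 0.997) and Nfkbid, a nuclear inhibitor of NF-kB, to Snhg1 (0.12, r = 0.990). The median distance over all tested probe sets was 2.18 from Rabggtb and 0.84 from Snhg1. These values are a description over 7 arrays that share the low unstimulated samples.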

How the data were processed

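RNA of spleen monocytes was measured on 7 arrays. The deposited values are log2 levels per probe set, and per the submitters' processing notes RMA was used, and Affymetrix Expression Console and Transcriptome Analysis Console are named without versions. RMA puts every array on 1 distribution, so a shift of many genes in 1 direction can be partly removed or mirrored in others. No scanner file was used here.

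Probe sets were named through GEO's platform annotation (25335 of 41345 listed, 23521 with 1 symbol, 1814 with several) and checked by Entrez identifier against RefSeq (23328 found, 0 symbols changed). Each probe set with 1 symbol that reached 5 (log2) on any array was tested on its own (11668), in limma 3.58.1 (R 4.3.3), with all 7 arrays in 1 fit of 5 groups, 2-sided moderated tests and Benjamini-Hochberg adjustment. A call is an adjusted p under 0.05. The spread rests on 2 groups of 2 arrays (2 residual and 4.98 prior degrees of freedom), so the number of arrays limits precision, and groups with 1 array were assumed to vary alike. The script was tested on simulated data.

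The mouse number names the animal and so pairs samples; across probe sets the unstimulated and HL7G differences between mice had r = -0.144. The members and lists were chosen with earlier results of these data known. Hosts were found by position only, since the RefSeq table gives no strand. Named genes were every member probe set, the snoRNAs inside the members, up to 4 genes per list with the largest HL7G difference, the nearest gene to each member (predicted loci and small RNAs left out), and Actb, B2m, Eef1a1 and Gapdh. Alternatives were the probe sets tested, the filter, the scaling, a variance trend, the mouse as a block and leaving out arrays.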

Additional observations from a re-analysis of the deposited data

Results flagged for a closer look

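The HL7G differences of Snora75 and Snord22 had opposite signs in the mice. In mouse 2 Snora75 differed by -0.044, which is close to 0, and Snord22 by -0.51, against 1.70 and 1.12 in mouse 1. Each value is 1 array against 1, and the difference between mice was not tested.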

How the results depend on the processing

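HL7G calls numbered 2181, and 532 when only probe sets with a mean level of at least 6 were tested (1448 of them). Leaving out 1 array gave 2 (without the unstimulated array of mouse 1), 1114 (without that of mouse 2), 1317 (without HL7G of mouse 1) and 3410 (without HL7G of mouse 2). The share of higher calls was 87.3%, and 64.8% over all probe sets of the table, 67.9% after cyclic loess and 58.1% after quantile normalization (both on tested probe sets). The median over all probe sets was 0.05, and -0.08 and -0.12 after those scalings. With the mouse as a replicate block 1966 probe sets were called with HL7G, 6 with R848 and 3 with poly I:C. R848 had 160 calls after loess, 636 after quantile normalization, 132 with a variance trend and 0 to 1605 with 1 array left out. CpG B had 46 after quantile normalization, 2 with the trend and 0 to 535 with 1 array left out, and poly I:C had 4, 3 and 0 to 166. In all 3 the highest count came without either HL7G array and the lowest without the unstimulated array of mouse 1. R848 against poly I:C had 0 calls in every setting run. The share of other hosts called higher was 37.2%, and 59.7% for hosts of a numbered snoRNA. The causes were not tested. The members' differences from unstimulated kept their sign in every setting run, but most were smaller after cyclic loess and quantile normalization. Median centring made them slightly larger, with an HL7G difference of 4.70 in Rabggtb. After cyclic loess the HL7G difference was 3.38 in Rabggtb, 4.32 in Rps13, 2.12 in Ncl, 1.57 in Gnl3 and 1.465 in Snhg1. It was 2.99 in Rps20 probe set 17422988 and 0.36 in Rps20 probe set 17422980. After quantile normalization it was 3.78 in Rps13. With 1 array left out the HL7G difference ran from 2.61 to 6.59 in Rabggtb, 4.19 to 5.005 in Rps13 and 2.73 to 4.54 in Rps20 probe set 17422988. It ran from 2.47 to 4.25 in Ncl, 1.43 to 3.30 in Gnl3, 1.25 to 2.13 in Snhg1 and 0.22 to 0.47 in Rps20 probe set 17422980.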

Other observations

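Other hosts had several probe sets that did not read alike, and the genes below were picked with their values known. Taf1d had 11 tested probe sets, of which 2 hold identical values, with HL7G differences from 1.03 to 3.70 and 7 called higher. Its unstimulated arrays differed between the mice by 0.37 to 3.69, depending on the probe set. Taf1d probe set 17514828 read 7.60 (mouse 1) and 11.3 (mouse 2) without a stimulus and 11.4 to 11.8 when stimulated, a course like that of Snord47. Taf1d probe set 17514826 read 2.37 and 2.85 unstimulated and 4.29 to 5.60 when stimulated.

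Nop56 had 3 tested probe sets. Probe set 17376272 read 8.87 (mouse 1) and 10.5 (mouse 2) without a stimulus and 10.5 to 10.9 when stimulated, and its HL7G difference of 0.90 ± 0.49 did not pass (limma adjusted p = 0.225). Nop56 probe set 17376252 rose by 1.41 ± 0.35 (limma adjusted p = 0.0340). Of the non-coding hosts, Snhg5 rose by 1.35 ± 0.26 (limma adjusted p = 0.0188) and Snhg6 by 2.48 ± 0.56 (limma adjusted p = 0.0272), and Snhg12 had 0.85 ± 0.30 (limma adjusted p = 0.0919).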
